A study of Homo sapiens with 72 samples.

Results

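This account covers 4 long non-coding RNA (lncRNA) genes, NONHSAG031936.3, NONHSAG110970.1, NONHSAG049810.2 and NONHSAG109468.1, out of 96411 lncRNA genes in a table of 3 human breast cell lines. They were chosen by their TGF-β time course in one line, as genes low at 0 h whose level at 2 or 8 h was far higher, so that rise is a description here and carries no test. MCF10A-M1 (M1) is a mammary epithelial line that is not malignant. MCF10A-M2 (M2) is its derivative carrying HA-Ras, and MDA-MB-231 comes from a triple-negative breast cancer. Cells of every group were kept overnight in medium without serum and then received TGF-β at 5 ng/mL or the inhibitor SB431542 (SB) at 10 µM. Each of the 24 groups of line, arm and hour (0, 2, 8 and 24 h) held 3 biological replicates, 72 libraries in all. The TGF-β arm at 0 h consists of non-stimulated controls. In the SB arm the samples titled 0 h have 0.5 h in the treatment label, and they are called the earliest SB samples.

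TGF-β is a secreted ligand that brings type I and type II receptor kinases together, after which SMAD proteins enter the nucleus and change transcription. In mammary epithelial cells it is known for halting growth and for driving the epithelial-mesenchymal transition, and Ras activity is known to alter that response. SB blocks the kinase of the type I receptor, so its arm reports on cells without signalling from TGF-β in the medium or made by the cells. LncRNAs are transcripts without a long open reading frame, and many are present at low level and in few cell types. The identifiers come from the NONCODE catalogue and the table does not pair them with names, so no function or position is given for any of these genes. For the same reason the lines could not be checked against marker genes.

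All levels are TPM, a share of transcripts corrected for length and scaled by the authors over the lncRNA genes alone. TPM keeps no read depth, so the precision of single values is unknown, and a value of 0 says only that the gene is listed at 0. RNA came from whole cultures, where fewer expressing cells and less RNA per cell cannot be told apart. Between 8458 and 16748 lncRNA genes per library stood at 0.5 TPM or more.

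In M1 these genes were not absent from all samples without added TGF-β. All 4 were present in the earliest SB samples of M1, at 0.862 to 16.1 TPM in every one of the 12 values. The non-stimulated controls were low, with 3 of the 4 genes listed at 0 in both replicates 1 and 2, but NONHSAG110970.1 was as low after 8 h of TGF-β and NONHSAG109468.1 after 2 h. At 24 h in M1, outside the choice, NONHSAG031936.3 was the only one of the 4 called above the SB arm. The plot of all libraries shows the other 3 genes with wide spreads between replicates in many groups.

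**Figure D1:**
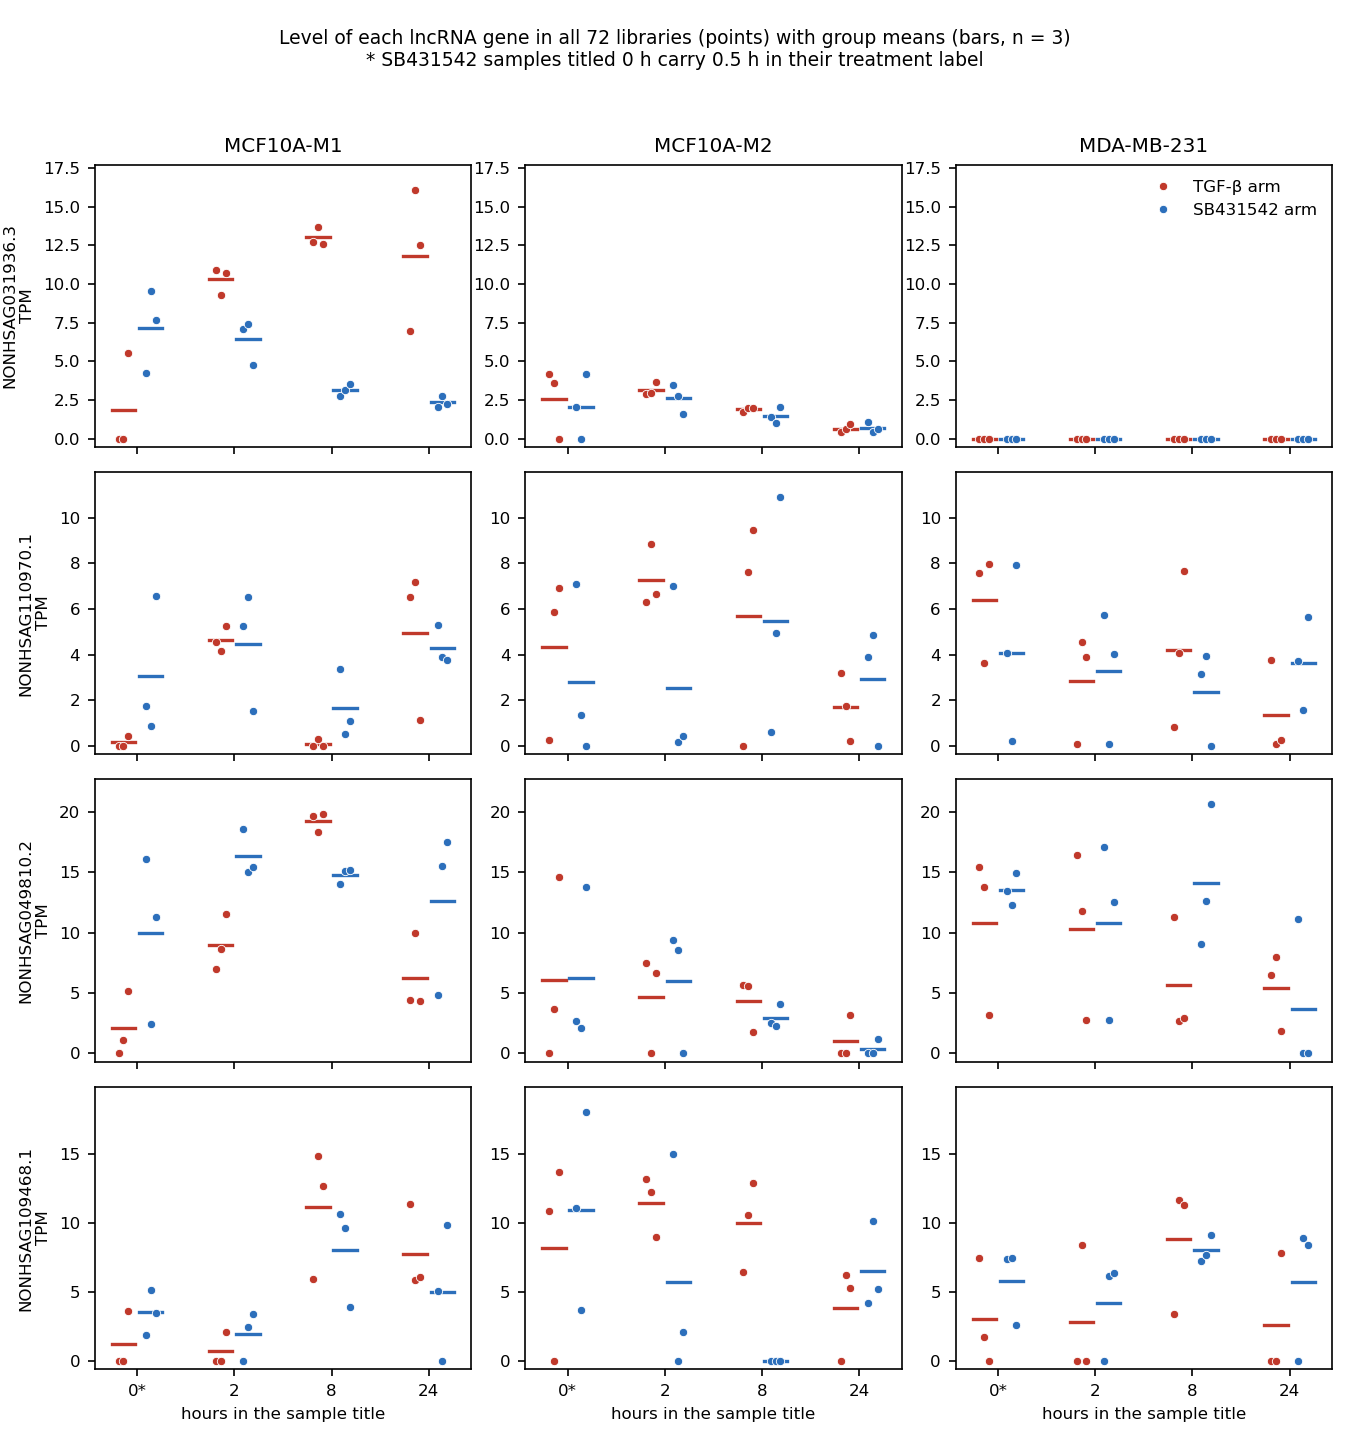
TPM of each gene (rows) in the 3 lines (columns) against the hour in the sample title, with 1 point per library, the TGF-β arm in red, the SB arm in blue and a bar at each group mean (n = 3). In M1, NONHSAG031936.3 separates the arms at 8 and 24 h with TGF-β higher, and it is listed at 0 throughout MDA-MB-231. Each of the 4 genes has groups whose 3 libraries spread from 0 or near it to several TPM.

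The values behind the choice were as follows. Among 20899 genes that could be tested in M1, the log2 change from 0 h to 2 h of NONHSAG031936.3, NONHSAG110970.1 and NONHSAG049810.2 ranked 3, 4 and 9, with values of 3.23, 3.05 and 2.51. At 8 h NONHSAG049810.2, NONHSAG031936.3 and NONHSAG109468.1 ranked 1, 2 and 4, with values of 3.59, 3.56 and 3.44. Every change and difference was taken on log2(TPM + 0.5), so folds of low genes come out too small. Genes of similar rank that were not taken up had rises of 3.37 (rank 2) and 3.00 (rank 5) at 2 h, and of 3.50 (rank 3) and 2.83 (rank 5) at 8 h. The gene of rank 3 at 8 h started from 8.66 TPM, above the 0.153 to 2.08 TPM at which the 4 genes started. The genes of rank 2 and 5 at 2 h, at 0.557 and 0.7 TPM, and of rank 5 at 8 h, at 1.6 TPM, started within that range. The gene of rank 1 at 2 h, also not taken up, rose by 4.96 from 27.3 TPM. NONHSAG110970.1 had no rise at 8 h, with a change of −0.08, and NONHSAG109468.1 had none at 2 h, with −0.22. At 24 h the changes were 3.35 for NONHSAG031936.3, 2.84 for NONHSAG110970.1, 1.94 for NONHSAG049810.2 and 2.98 for NONHSAG109468.1. They start from the same chosen 0 h controls and carry no test.

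The low start in M1 lay in replicates 1 and 2 of the controls, and for NONHSAG110970.1 in all 3 replicates. In the non-stimulated controls NONHSAG031936.3 was listed at 0, 0 and 5.54 TPM in replicates 1, 2 and 3. NONHSAG110970.1 was listed at 0, 0 and 0.458 TPM, NONHSAG049810.2 at 0, 1.07 and 5.16 TPM, and NONHSAG109468.1 at 0, 0 and 3.60 TPM. Replicate 3 held the highest value for each of the 4 genes. In the earliest SB samples the same genes stood at 4.21, 9.51 and 7.67 TPM, at 1.74, 0.862 and 6.57 TPM, at 16.1, 2.45 and 11.3 TPM, and at 1.91, 5.18 and 3.48 TPM.

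The controls were therefore below the earliest SB samples by log2 differences of −2.67 (SE 0.58), −2.16 (SE 0.61), −2.34 (SE 0.63) and −1.91 (SE 0.95), in the same gene order. These differences carry no test, because a low level at 0 h was part of the choice. The number of genes at 0.5 TPM or more was 16239, 15619 and 15771 in the controls, against 15412, 15422 and 15776 in the earliest SB samples. It was highest in control replicate 1, where all 4 genes were listed at 0. What sets these listings at 0 was not tested.

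NONHSAG031936.3 had the clearest separation of the arms in M1. Under TGF-β it stood at 10.9, 9.28 and 10.7 TPM at 2 h, at 12.7, 13.7 and 12.6 TPM at 8 h, and at 6.92, 16.1 and 12.5 TPM at 24 h. Under SB it stood at 7.10, 7.40 and 4.77 TPM at 2 h, at 2.76, 3.14 and 3.52 TPM at 8 h, and at 2.06, 2.72 and 2.23 TPM at 24 h. At each of these hours the lowest TGF-β library lay above the highest SB library, and the SB arm was lower at 8 and 24 h than at 2 h. The share of all genes whose arms separate so was not counted. The 2 and 8 h differences, 0.66 (SE 0.58) and 1.90 (SE 0.58), involve libraries of the choice and carry no test.

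The 24 h libraries of M1 took no part in the choice. There NONHSAG031936.3 was at 11.8 ± 4.61 TPM with TGF-β and at 2.34 ± 0.342 TPM with SB (SD, n = 3 each), a log2 difference of 2.05 (SE 0.58, 95% interval 0.85 to 3.25, limma adjusted p 0.0179). It was the only one of the 4 genes called in this comparison, in which 14.6% of all tested genes were called. The call was lost without SB replicate 1 or 3 (limma adjusted p 0.0582 and 0.0518) and without TGF-β replicate 2 (0.0866), and the difference then ranged from 1.80 to 2.02. It was also lost with a pseudocount of 0.1 (limma adjusted p 0.104) and with no filter on low values (0.0503).

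In the SB arm of M1 this gene was at 7.13 ± 2.69 TPM in the earliest samples and at 2.34 ± 0.342 TPM at 24 h, and the libraries of the 2 groups did not overlap. The share of all genes with groups that separate so was not counted. The log2 change of −1.37 (SE 0.58) did not pass over all genes (limma adjusted p 0.212), and passed where only the compared groups entered the fit (0.0284). Set against the earliest SB samples, a comparison added after the values were seen, the 24 h TGF-β level differed by 0.68 (SE 0.58, 95% interval −0.51 to 1.88, limma adjusted p 0.514). At 2 h of TGF-β its 3 libraries, from 9.28 to 10.9 TPM, overlapped with those earliest SB samples, whose highest value was 9.51 TPM, and at 8 h they lay above all of them.

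In M2 the arms of this gene overlapped at every hour. It stood at 4.15, 3.57 and 0 TPM in the controls, at 2.89, 2.93 and 3.64 TPM after 2 h of TGF-β, at 1.69, 1.97 and 2.00 TPM after 8 h and at 0.403, 0.593 and 0.928 TPM after 24 h. Under SB the values were 2.04, 0 and 4.19 TPM in the earliest samples, 3.49, 2.75 and 1.58 TPM at 2 h, 1.36, 1.01 and 2.07 TPM at 8 h, and 1.09, 0.429 and 0.622 TPM at 24 h. Both arms had their lowest mean at 24 h. The mean difference between the arms over 2, 8 and 24 h was 0.17 (SE 0.38, 95% interval −0.61 to 0.95, limma adjusted p 0.819).

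The 24 h difference between arms was larger in M1 than in M2 by 2.13 (SE 0.92, 95% interval 0.26 to 4), which did not pass over all genes (limma adjusted p 0.345). In the earliest SB samples the level in M1 was above that in M2, 7.13 ± 2.69 against 2.07 ± 2.09 TPM (log2 difference 2.01, SE 0.65, limma adjusted p 0.0283). That call rested on single libraries, with a limma adjusted p of 0.305 (difference 1.08) without M2 replicate 2, which was listed at 0, and of 0.0978 and 0.0826 without M1 replicate 2 or 3. It was also lost with a pseudocount of 0.1, with no filter and after quantile normalization. In all 24 libraries of MDA-MB-231 NONHSAG031936.3 was listed at 0, so no fold or test within that line is given.

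NONHSAG110970.1 differed widely between replicates in both arms. In M1 it stood at 4.54, 4.17 and 5.25 TPM after 2 h of TGF-β, at 0, 0.311 and 0 TPM after 8 h and at 6.51, 7.19 and 1.12 TPM after 24 h. The SB libraries gave 5.25, 6.54 and 1.54 TPM at 2 h, 3.36, 0.516 and 1.11 TPM at 8 h and 5.28, 3.89 and 3.75 TPM at 24 h. At 2 h the TGF-β libraries lay within the range of the SB libraries, and at 8 h they lay below all of them. The TGF-β libraries of both hours were part of the choice, so no test is given, and the share of all genes that separate so was not counted. The 24 h difference between the arms was −0.10 (SE 0.61, 95% interval −1.36 to 1.15, limma adjusted p 0.946).

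In M2 the gene ranged from 0 to 10.9 TPM, and at 8 h both the TGF-β libraries (0, 7.63 and 9.47 TPM) and the SB libraries (0.596, 4.94 and 10.9 TPM) ran over almost the whole range. In MDA-MB-231 it ranged from 0.00257 to 7.98 TPM with a median of 3.83, and its highest group was that of the non-stimulated controls, at 7.59, 3.64 and 7.98 TPM. After 24 h of TGF-β that line gave 3.76, 0.101 and 0.251 TPM, a log2 change of −2.40 (SE 1.03) from the controls that did not pass (limma adjusted p 0.174).

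NONHSAG049810.2 had its highest group mean in M1 after 8 h of TGF-β, with 19.6, 18.3 and 19.8 TPM. The SB groups of M1 at 2 and 8 h had the next highest means, at 18.6, 15.0 and 15.4 TPM at 2 h and at 14.0, 15.1 and 15.2 TPM at 8 h, whereas TGF-β gave 6.98, 8.61 and 11.5 TPM at 2 h. The arms thus did not overlap at either hour, with SB higher at 2 h and TGF-β higher at 8 h. The log2 differences were −0.85 (SE 0.63, 95% interval −2.15 to 0.46) and 0.37 (SE 0.63, 95% interval −0.94 to 1.68). These TGF-β libraries were part of the choice, so no test is given and the intervals are not read as one. How many of all genes separate in this way was not counted. At 24 h TGF-β gave 4.43, 9.98 and 4.32 TPM and SB 4.87, 15.5 and 17.5 TPM, a difference of −0.88 (SE 0.63, 95% interval −2.19 to 0.43, limma adjusted p 0.411).

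In M2 NONHSAG049810.2 was at or near 0 in most 24 h libraries of both arms, with 0, 0 and 3.17 TPM under TGF-β and 0, 0 and 1.19 TPM under SB, from 0, 3.65 and 14.6 TPM in the controls and 2.70, 2.08 and 13.8 TPM in the earliest SB samples. The change over the SB course, −2.71, did not pass (limma adjusted p 0.0742), and passed where only the compared groups entered the fit (0.00757). The limma adjusted p was 0.218, 0.237 and 0.259 under the 3 rescalings, and 0.0646 to 0.285 without each library in turn. Over the same course the median change of all tested genes in M2 was −0.63, and 37.2% were called. Under median-of-ratios scaling that median was −0.1, with 1879 genes called higher and 1642 lower, against 341 and 5963 in the main fit. In MDA-MB-231 the replicates of several groups again lay far apart. The controls stood at 15.4, 13.8 and 3.2 TPM, and the earliest SB samples at 13.4, 12.3 and 14.9 TPM. After 24 h of SB the 3 libraries gave 11.1, 0 and 0 TPM, with a limma adjusted p of 0.0592 against the earliest SB samples. This comparison passed under 6 of the 9 other settings, with the lowest limma adjusted p, 0.0297, under the replicate block, and at 0.00215 without the 24 h library at 11.1 TPM. It did not pass without either 24 h library at 0 (limma adjusted p 0.283 and 0.196) or without any one of the earliest SB libraries (0.133 to 0.161). At the same hour TGF-β gave 6.5, 7.94 and 1.84 TPM, and the difference from SB was 1.86 (SE 0.90, limma adjusted p 0.212). It was 3.37 (limma adjusted p 0.0196) without that same SB library, and 1.1 without either of the SB libraries at 0 (0.511 and 0.508).

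NONHSAG109468.1 had higher means at 8 h than at 2 h in both arms of M1. Under TGF-β it was listed at 0, 0 and 2.09 TPM at 2 h and stood at 5.96, 14.9 and 12.7 TPM at 8 h and 11.4, 5.85 and 6.10 TPM at 24 h. Under SB it stood at 0, 2.47 and 3.38 TPM at 2 h, at 10.7, 9.66 and 3.94 TPM at 8 h and at 5.07, 0 and 9.86 TPM at 24 h. The arms overlapped at each of these hours. At 24 h the difference was 1.37 (SE 0.95, 95% interval −0.61 to 3.35, limma adjusted p 0.394). It was 0.06 without SB replicate 2, listed at 0, and 2.25 without SB replicate 3. In the SB course the 8 h change from the earliest samples was 1.07 (SE 0.95, limma adjusted p 0.642).

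In M2 this gene gave a call between the arms at a single hour. At 8 h the TGF-β libraries stood at 6.43, 10.6 and 12.9 TPM, while all 3 SB libraries were listed at 0, so no fold is given (limma adjusted p 0.0158). The call was lost without SB replicate 1 (limma adjusted p 0.0555), without TGF-β replicate 2 or 3 (0.0599 and 0.0734) and with no filter (0.0612). At 2 h the SB libraries gave 15.0, 0 and 2.13 TPM beside 13.2, 12.3 and 9.03 TPM with TGF-β, and at 24 h SB gave 4.22, 10.2 and 5.21 TPM beside 0, 6.25 and 5.27 TPM. The mean difference over the 3 hours was 1.72 (SE 0.62, 95% interval 0.43 to 3.01, limma adjusted p 0.0648). This mean includes the 8 h term against a group at 0, and it was 1.39 with a pseudocount of 1 and 2.50 with 0.1. It passed on leaving out SB 2 h replicate 1 or TGF-β 24 h replicate 1 (limma adjusted p 0.0122 and 0.0158) and where only the compared groups entered the fit (0.027).

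The fall of NONHSAG109468.1 over the first 8 h of SB in M2, from 11.1, 3.73 and 18.1 TPM to the 3 listings at 0, was called as well (limma adjusted p 0.0407). That call was lost under each rescaling (0.0779, 0.262 and 0.079), with no filter (0.109), without earliest SB replicate 1 or 3 (0.0861 and 0.199) and without 8 h replicate 1, 2 or 3 (0.126, 0.127 and 0.078). The MDA-MB-231 line had the gene listed at 0 in 7 of 24 libraries and at up to 11.7 TPM. After 8 h the TGF-β libraries of that line gave 3.42, 11.7 and 11.3 TPM and the SB libraries 7.25, 7.72 and 9.18 TPM, a difference of −0.04 (SE 1.26, limma adjusted p 0.996).

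In M2 and MDA-MB-231, which had no part in the choice, few tests of the genes passed. The mean difference between the arms over 2, 8 and 24 h was called for 0 of 4 genes in M2, where 15.5% of all tested genes were called, and for 0 of 3 in MDA-MB-231, where 11.6% were. The median difference of the genes was 0.36 in M2 beside 0.12 for all tested genes, and −0.29 beside −0.18 in MDA-MB-231. At single hours in these lines 1 of 21 tests between the arms passed, that of NONHSAG109468.1, against 4.14%, 6.92% and 10.7% of all genes in M2 at 2, 8 and 24 h and 1.14%, 0.936% and 4.39% in MDA-MB-231.

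The contrast that chose the genes in M1 was repeated in the other lines. From 0 h to 2, 8 and 24 h of TGF-β, limma called 0 of 21 member tests in M2 and MDA-MB-231, with 1 at an unadjusted p under 0.05 and 1 called where only the compared groups entered the fit. The shares of all genes called in M2 were 0.702%, 4.86% and 49.3%, and those for MDA-MB-231 were 0.58%, 1.27% and 5.58%. In M2 the changes of the 4 genes ran from −0.05 to 1.45 at 2 h and from −1.70 to −0.69 at 24 h, where the median of all tested genes was −0.74. That median and share depend on the scaling. Under median-of-ratios scaling the median was −0.13, with 3069 genes called higher and 3215 lower, against 714 and 7651 in the main fit. At 2 h in M2 the 95% interval of NONHSAG031936.3 was −0.57 to 2.13, beside an M1 change of 3.23 (SE 0.58). That of NONHSAG049810.2 was −2.49 to 2.40, beside an M1 change of 2.51 (SE 0.63). The interval of NONHSAG110970.1, −1.27 to 3.71, held its M1 change of 3.05. At 8 h in M2 the intervals were −1.18 to 1.52 for NONHSAG031936.3, −1.96 to 2.93 for NONHSAG049810.2 and −1.01 to 3.46 for NONHSAG109468.1. The M1 changes beside them were 3.56, 3.59 and 3.44. In MDA-MB-231 the 2 h intervals were −3.62 to 0.63 for NONHSAG110970.1 and −1.97 to 1.76 for NONHSAG049810.2. At 8 h in that line they were −2.77 to 0.96 for NONHSAG049810.2 and −0.6 to 4.59 for NONHSAG109468.1. The M1 changes were selected on for being large, so these pairs are given as values and the difference between lines was not tested.

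Over the SB course 1 of 33 tests passed, again NONHSAG109468.1 in M2 at 8 h. The shares of all genes called at 2, 8 and 24 h were 0.0813%, 3.68% and 5.25% in M1. The same shares were 2.99%, 2% and 37.2% for M2 and 0%, 0.242% and 1.9% for MDA-MB-231. Against the earliest SB samples the 24 h TGF-β samples of M1 gave 0 of 4 calls, beside 13% of all genes, and 0 of 4 at an unadjusted p under 0.05. The starting samples of the arms gave 0 of 7 calls in M2 and MDA-MB-231, also at an unadjusted p under 0.05, where limma called 0.0118% and 0% of all genes.

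Lines were compared for the difference between the arms with 0 of 16 member tests called and 3 at an unadjusted p under 0.05. These tests set M2 against MDA-MB-231 at 2, 8 and 24 h (5.07%, 2.87% and 4.72% of all genes called) and M1 at 24 h against M2 (2.13%) and against MDA-MB-231 (5.21%). For levels in the earliest SB samples 1 of 10 tests passed, that of NONHSAG031936.3 described above, while 18.2% of all tested genes differed between M1 and M2, 41.1% between M1 and MDA-MB-231 and 36% between M2 and MDA-MB-231. NONHSAG031936.3 against MDA-MB-231, where it was listed at 0, is in neither count. For that gene limma gave an adjusted p of 3.1e-09 (M1) and 0.00306 (M2) for the earliest SB level, and of 0.0466 for the 24 h difference between the arms in M1 against MDA-MB-231. In these fits the listings at 0 in MDA-MB-231 add no spread. The residual SD of the gene was 0.57 with M1 and 0.65 with M2, beside 0.8 in M1 alone and 0.92 in M2 alone. These p-values are therefore likely too small. The shares of all genes do include genes at 0 in one line. A test that did not pass does not show equal levels, and the plot of differences gives the intervals.

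**Figure D2:**
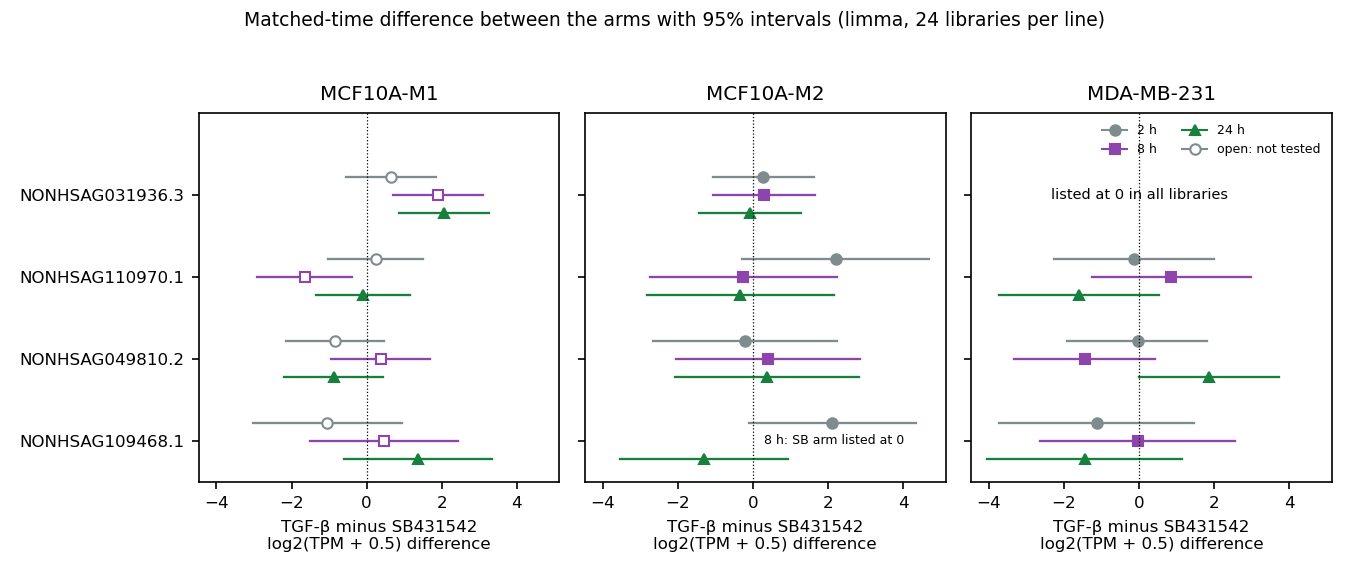
Difference between TGF-β and SB at 2 h (circles), 8 h (squares) and 24 h (triangles) on the log2(TPM + 0.5) scale for each gene and line, with 95% intervals from limma; open symbols in M1 involve libraries of the choice and were not tested. In M1 at 24 h the interval of NONHSAG031936.3, 0.85 to 3.25, lies above 0, while the interval of every other filled symbol spans 0; no point is drawn for NONHSAG109468.1 at 8 h in M2, where SB was listed at 0.

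The width of these intervals reflects how far replicates lay apart. The residual SD within groups of log2(TPM + 0.5) was 0.42 for the median gene in M2, and 0.92, 1.76, 1.72 and 1.57 for NONHSAG031936.3, NONHSAG110970.1, NONHSAG049810.2 and NONHSAG109468.1. From 98.9% to 99.8% of the tested genes in M2 had a smaller spread. In MDA-MB-231 the median gene was at 0.39, and NONHSAG110970.1, NONHSAG049810.2 and NONHSAG109468.1 were at 1.5, 1.32 and 1.85, above 99.7% to 99.8% of genes. In M1, whose spread includes the controls of the choice, the 4 genes were at 0.80, 0.83, 0.89 and 1.35 where the median gene was at 0.40.

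**Figure D3:**
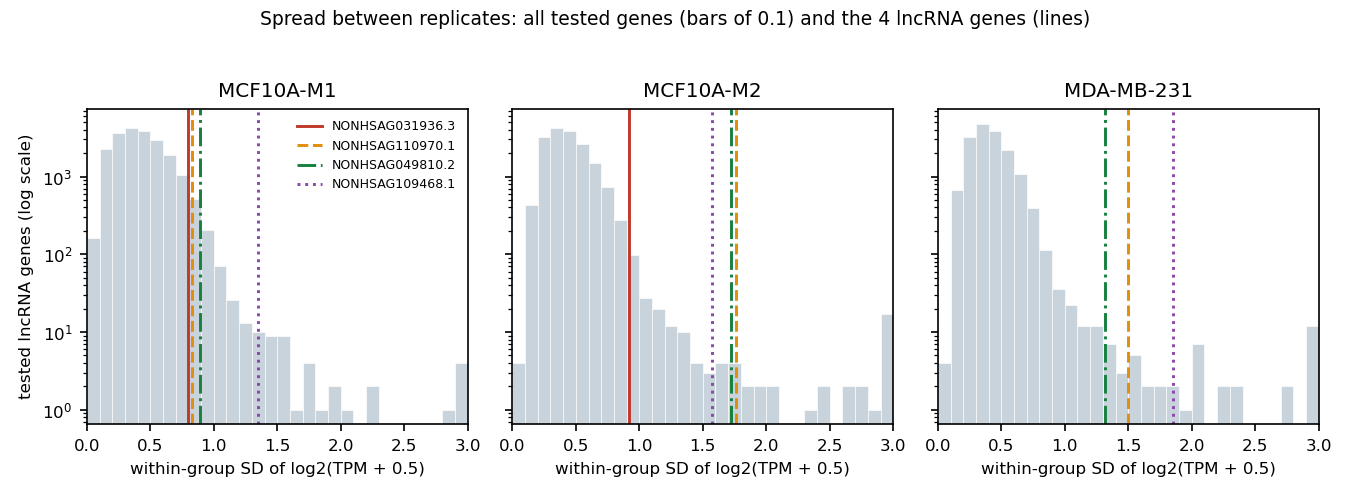
Number of tested lncRNA genes (log axis) by their residual SD within groups in bins of 0.1, with all larger values in the last bar, and lines for the 4 genes. In M2 and MDA-MB-231 all lines drawn except NONHSAG031936.3 lie at 1.32 or more, far to the right of the median genes at 0.42 and 0.39.

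Part of this spread was between libraries listed at 0 and replicates well above it. In M2 NONHSAG049810.2 had both a listing at 0 and a value of at least 1 TPM within 5 of 8 groups, as many as 0.136% of the tested genes. NONHSAG110970.1 and NONHSAG109468.1 did so in 3 groups each (1.39% of genes had as many) and NONHSAG031936.3 in 2 (4.54%). In MDA-MB-231 NONHSAG109468.1 did so in 5 groups (0.0544%) and NONHSAG049810.2 in 1 (8.91%). There NONHSAG110970.1 did so in 0 groups and was listed at 0 in no library, although 99.8% of genes had a smaller spread. In M1, with the controls of the choice included, NONHSAG109468.1 did so in 4 groups (0.833%). NONHSAG031936.3 and NONHSAG049810.2 did so there in 1 each (17.7%) and NONHSAG110970.1 in 0. Reads shared with near-identical or overlapping genes, and any strand setting, were not tested.

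The 4 genes did not form one pattern. Over the 24 group means of log2(TPM + 0.5), the Pearson correlation between pairs of them ran from 0 to 0.25. These points share lines, libraries and the scaling of TPM. The gene most like NONHSAG031936.3, among 23569, was NONHSAG043291.3 with r = 0.937 over the 24 groups, and 48 genes reached 0.9. Its means in M1 were 1.36 TPM in the controls and 2.42 TPM after 24 h of TGF-β, 2.07 TPM in the earliest SB samples and 1.27 TPM after 24 h of SB, and it was listed at 0 in those 4 groups of MDA-MB-231. As its likeness was measured on these same means, nothing further is read from their order.

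For the other 3 genes no gene reached 0.9. The nearest to NONHSAG049810.2 was NONHSAG044022.3 (r = 0.83), with M1 means of 5.66 TPM in the controls and 5.5 TPM in the earliest SB group. NONHSAG007427.2 was nearest to NONHSAG110970.1 (r = 0.657) and NONHSAG052469.2 to NONHSAG109468.1 (r = 0.6), the last at no more than 0.237 TPM on average in any group at 0 or 24 h. Order of levels differed between the genes as well. The highest group mean was in M1 for NONHSAG031936.3 (13.0 ± 0.584 TPM) and NONHSAG049810.2 (19.2 ± 0.781 TPM), both after 8 h of TGF-β. It was in M2 after 2 h of TGF-β for NONHSAG110970.1 (7.28 ± 1.38 TPM) and NONHSAG109468.1 (11.5 ± 2.2 TPM). For those 2 genes the next group in order, the MDA-MB-231 controls at 6.40 ± 2.40 TPM and M1 after 8 h of TGF-β at 11.2 ± 4.66 TPM, lay within the spread of the first.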

How the data were processed

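LncRNA gene levels were measured in 72 total-RNA libraries (3 lines, 2 agents, 4 hours, 3 replicates), grouped by the sample titles. The series' design text speaks of 36 samples. The authors deposited TPM values, scaled over 96411 lncRNA genes. FastQC, cutadapt 2.10, HISAT2 2.2.0, StringTie 1.3.6 and GRCh38 are named, per the submitters' processing notes. The strand setting and annotation release were not given in the sources used here. Without depth in TPM, no counting interval was possible.

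limma 3.58.1 (eBayes with trend; R 4.3.3) was run on log2(TPM + 0.5) for genes that reached 0.5 TPM in 3 or more of the fitted libraries. A fit took the 24 libraries of a line, or 48 of a pair of lines. Tests were two-sided, with Benjamini-Hochberg adjustment over all genes tested, and calls at an adjusted p under 0.05. The fit was tested on simulated data, with each gene's residuals shuffled and known shifts added to genes averaging at least 1 TPM. That run did not single out genes whose groups mix listings at 0 with several TPM.

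The 4 genes were named with earlier results of these data known. All are described, and for each the gene of highest Pearson correlation over the 24 group means. Identifiers matched no gene name, so marker and pathway genes were not analysed here. Alternatives were pseudocounts of 1 and 0.1, no filter, a minimum mean of 1 TPM, 3 rescalings, the replicate number as a block, only the compared groups, and leaving out each library. The design text calls the triplicates biological; nothing names separate cultures, so the p-values may reflect technical spread alone. Same-numbered TGF-β and SB libraries deviated together with r over 0.1 in 5 of 27 pairs, so the numbers were not taken as pairs.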

Additional observations from a re-analysis of the deposited data

How the results depend on the processing

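In M1 at 24 h the log2 difference between the arms of NONHSAG031936.3 was 2.22 with a pseudocount of 0.1 and 2.05 with no filter, where the call was lost, and 1.80 to 2.38 without each library in turn. For NONHSAG110970.1 that difference turned from −0.10 to 0.17 under median-of-ratios scaling, 0.01 after rescaling without the 10 most abundant genes and 0.13 under quantile normalization, and ran from −0.50 to 0.62 without each library. The mean difference over 2, 8 and 24 h in M2 turned to −0.05 for NONHSAG031936.3 and −0.01 for NONHSAG049810.2 under quantile normalization. For NONHSAG109468.1 it was 1.72 and called when the fit held only the compared groups. Without each library it ran from −0.29 to 0.62 for NONHSAG049810.2 and from 1.31 to 2.14 for NONHSAG109468.1. In MDA-MB-231 that of NONHSAG049810.2 turned to −0.02 with a pseudocount of 1 and ran from −0.13 to 0.62 without each library, and that of NONHSAG110970.1 ran from −0.64 to 0.05. The reversed values were uncalled in every case, and the cause of these shifts was not tested. The replicate block, for libraries that share only a number, left the 24 h difference of NONHSAG031936.3 in M1 at 2.05 (limma adjusted p 0.0164) and moved the calls over the SB course from 1 to 2, with NONHSAG049810.2 in MDA-MB-231 added (0.0297). Those calls were 2 with a pseudocount of 0.1 or a mean filter, 3 with only the compared groups and 0 with no filter. Unknown depth limits values near 0, and groups of 3 are too small for an outlier test.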
